A study of Mus musculus with 3 samples.

Results

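The 33 genes described here encode proteins of the motile axoneme, the microtubule core of cilia that beat, or other cilium proteins. They were taken from a list of dynein arm, radial spoke, central pair, tektin and Cfap genes, each matched by Ensembl identifier in all 3 libraries, and make up 33 of the 27040 genes that the libraries share. All 33 carried the same symbol in every library. For the description they were ordered by position in the axoneme: 5 outer dynein arm genes, 5 genes of the axonemal ruler, the nexin-dynein regulatory complex and a dynein tether, 4 radial spoke genes, 4 genes of the central apparatus, 11 tektins and other proteins of the doublet microtubules, and 4 other cilium proteins.

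A motile axoneme is built from outer doublet microtubules around, in most motile cilia, a central pair. Dynein arms on one doublet walk along its neighbour, radial spokes and the central apparatus pace that movement, and filamentous proteins inside the doublet wall hold the microtubules together. Multiciliated cells switch on these genes as a set: GMNC (geminin coiled-coil domain containing) and MCIDAS start the program, CCNO and DEUP1 serve centriole multiplication, and FOXJ1 and RFX factors act on the axonemal genes. In the embryonic brain the choroid plexus epithelium, which secretes cerebrospinal fluid, carries such cilia. The cortical hem, at its border, gives rise to Cajal-Retzius cells, early neurons of the cortical surface that secrete reelin, and the study's title places the multiciliation network in their fate specification.

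Tissue spanning the dorsal pallial midline was taken from C57BL/6J mouse embryos and profiled as single cells by 10x Genomics 3′ sequencing. The wild-type suspension pooled 4 PGKCre;Rosa26YFP embryos at E11.5, in which Cre under a general promoter turns on a yellow fluorescent reporter, with 4 Wnt3aCre;Rosa26tdTomato embryos at E12.5, in which Cre from the hem gene Wnt3a turns on a red one. It was split into 2 libraries. The third library held cells of 4 Gmnc-/- embryos at E12.5, for which the labels name no reporter. The wild-type libraries are therefore technical repeats of 1 sample, and the knockout is 1 sample of pooled embryos. Genotype, reporter alleles and the gene set used for counting cannot be told apart between them. Stage can be in part, through the reporter transcripts. Since tdTomato marks only the Wnt3aCre lineage of the E12.5 embryos, a group of tdTomato cells is selected by lineage as well as stage. With 1 sample per genotype there is no test: values are given per library, with intervals that cover counting error only.

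The libraries held 148073906, 139978761 and 259403297 UMIs (unique molecular identifiers, which count captured RNA molecules), and 8527, 7479 and 12884 cells were used, with median UMI counts of 11704, 12860 and 8755 per cell. The wild-type libraries shared 1914 cell barcodes, and wild type and knockout shared 78 and 42. Where a barcode was in both wild-type libraries, the smaller of its UMI totals was at the median 2.33% of the larger. Without those 1914 barcodes, the 4 counts of called members given below (18, 21, 29 and 16) were 18, 22, 29 and 16. Levels are given as CPM, the UMIs of a gene per 1000000 UMIs of all cells of a class in a library. A gene counted as measured in a comparison with at least 20 UMIs on its higher side, and as called when the groups differed at least 2-fold, both against the wild-type mean and against each wild-type library. These calls describe size and are not tests. The labels do not place the Gmnc deletion, and a 3′ count outside the deleted part checks nothing: Gmnc was 73.0 and 79.8 CPM in wild-type and 212 CPM in knockout choroid plexus-like cells. Mcidas, which acts after Gmnc, had no UMI in knockout plexus-like cells or Cajal-Retzius-like neurons and 2 over all knockout cells used.

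Regulatory factor X proteins bind the X-box, a pair of inverted sites of which GTTGCC is one side. Promoters, taken as 250 bases before to 50 bases after the RefSeq gene start on GRCm38.p6, were searched on both strands for this side, for the longer X-box core GTTNCNATG, and for the forkhead motif TGTTTAC. A core of the form GTTGCCATG also contains the side. Of the 33 genes, 28 were matched in the promoter table. The side was found in 16 of these 28 (57.1%), against 14.1% of 27025 genes. The core was found in 4 (14.3%, against 4.28%) and the forkhead motif in 3 (10.7%, against 4.05%). A match is a description of letters and not of binding. Among the other cilium lists the side was found in 22 of 50 further axonemal genes (44%) and in 13 of 29 genes of intraflagellar transport and the primary cilium (44.8%).

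Stretches of 8 promoters are printed 5′ to 3′ on the strand of the gene, from 36 bases before the first match; all end before the start. The first 4 belong to genes that were among those most different between knockout and wild-type neurons or highest there, a choice made after the values had been seen, and capitals mark the X-box side or its reverse complement GGCAAC. The last 4 are the genes with a core match, and capitals mark the core on either strand. Dynlrb2 lies at chr8:116504928-116505006 on the plus strand, Tekt1 at chr11:72361883-72361953 on the minus strand, 1110017D15Rik at chr4:41507765-41507818 on the minus strand and Fam183b at chr11:58801985-58802063 on the minus strand. Cfap45 lies at chr1:172521075-172521129 on the plus strand, Cfap52 at chr11:67965643-67965694 on the minus strand, Dnah5 at chr15:28203662-28203743 on the plus strand and Sntn at chr14:13670774-13670855 on the plus strand.
Dynlrb2: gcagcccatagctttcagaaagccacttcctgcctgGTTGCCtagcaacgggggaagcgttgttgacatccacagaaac
Tekt1: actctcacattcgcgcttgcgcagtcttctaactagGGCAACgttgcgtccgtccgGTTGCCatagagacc
1110017D15Rik: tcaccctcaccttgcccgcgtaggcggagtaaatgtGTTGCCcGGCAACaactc
Fam183b: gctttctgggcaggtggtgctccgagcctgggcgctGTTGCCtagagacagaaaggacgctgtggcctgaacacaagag
Cfap45: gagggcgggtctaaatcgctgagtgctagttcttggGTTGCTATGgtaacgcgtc
Cfap52: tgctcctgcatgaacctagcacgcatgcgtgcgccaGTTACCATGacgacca
Dnah5: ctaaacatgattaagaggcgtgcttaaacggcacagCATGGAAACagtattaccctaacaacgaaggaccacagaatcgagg
Sntn: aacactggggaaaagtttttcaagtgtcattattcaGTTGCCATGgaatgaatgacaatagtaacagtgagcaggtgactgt

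In wild-type tissue the axonemal genes were concentrated in 1 cluster. Cells had been clustered without any gene of the cilium lists, and over the 24 clusters and neuron sub-clusters with at least 50 wild-type cells, 31 of the 32 detected members were highest in cluster 15. Unlisted genes of like pattern, such as Saxo2 and Morn5, were not barred from the clustering. Cluster 15 may therefore itself rest in part on such genes. This cluster (308 and 294 cells) was choroid plexus-like: 8 of 9 plexus markers were at least 2-fold above the other cells, and the transthyretin gene Ttr stood at 30484 and 29516 CPM. Its leading genes by fold, however, were not plexus markers but cilium genes, among them Dynlrb2, Deup1 (under its older symbol Ccdc67), Rsph1, Cfap126, Pifo and 1110017D15Rik. The members summed to 5532 and 5465 CPM in cluster 15. In the other plexus-like clusters they summed to 941 and 916 CPM in cluster 9 and to 462 and 464 CPM in cluster 10, against 197 and 200 CPM in hem progenitor-like cells and 30.1 and 29.6 CPM in erythroid cells, which serve as a measure of free RNA. Much of the last 2 sums was Mns1. It gave 3574 wild-type UMIs in hem progenitor-like cells, where all members had 3778 and 3997 by library. In erythroid cells it gave 141, where all members had 96 and 95. Cluster 15 held 32.9% of the wild-type plexus-like cells (602 of 1829) and 79.3% of their member UMIs (43905 of 55362).

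**Figure D1:**
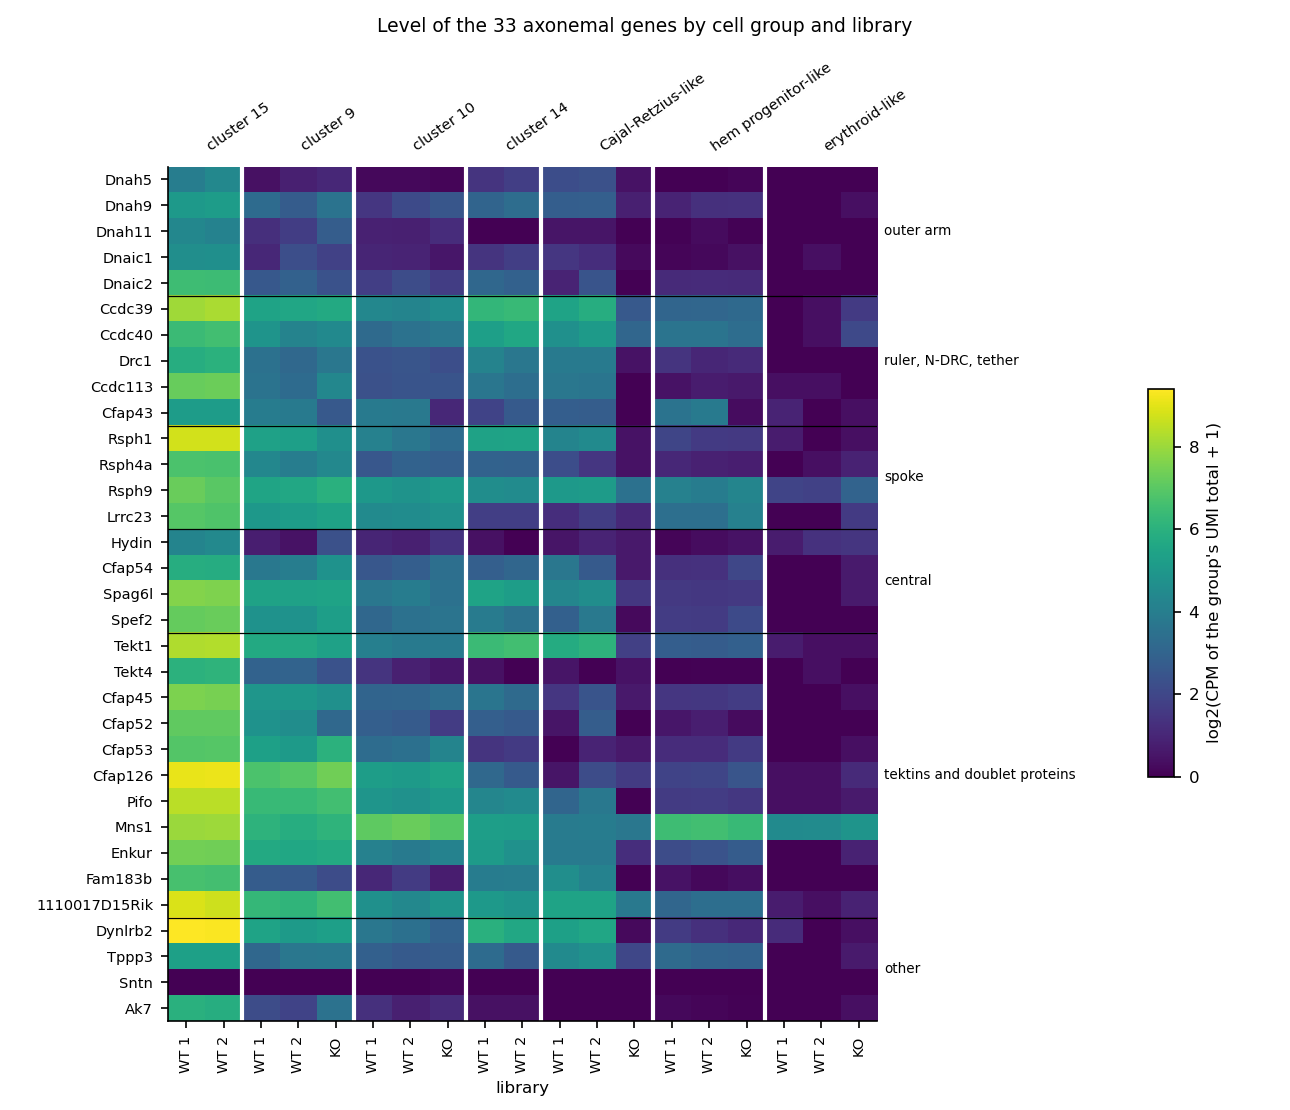
Levels of the 33 axonemal genes (rows, by structural group) in cell classes and clusters of each library (columns), coloured by log2(CPM + 1). Cluster 15, present in the wild-type libraries only, carries the highest level of 31 of the 32 detected genes.

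The exceptions were Tppp3 and Sntn. Tppp3, which encodes a tubulin-binding protein, was highest in the Cajal-Retzius-like sub-cluster 9, at 75.5 and 65.5 CPM, against 39.8 and 40.04 CPM in cluster 15. Sntn, the gene of sentan at the ciliary tip, had no wild-type UMI and a single UMI in the knockout, in cluster 10. The next highest level after cluster 15 was found in cluster 9 for 16 members, in the Cajal-Retzius-like sub-clusters 3 and 8 for 7 and 4, in cluster 14 for 2, in cluster 10 for Mns1, and in sub-cluster 9 for Dnah5.

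Of 32 members measured, 29 were at least 2-fold higher in wild-type choroid plexus-like than hem progenitor-like cells, as were 12.4% of all measured genes. The median log2 difference over all 33 members was 3.78. Cfap43, Mns1 and Tppp3 were not called. Mns1, which encodes a filament inside the doublet, stood apart in the hem: 89.7 and 92.7 CPM in wild type and 80.7 CPM in the knockout, against 155 and 168 CPM and 95.7 CPM in plexus-like cells. It was also the one member with a clear level in erythroid cells, at 21.6, 22.4 and 28.0 CPM. Its UMIs were thus spread over cells with and without the other axonemal genes.

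In the knockout the members were lower in choroid plexus-like cells as a class. Their sum was 1939 and 2123 CPM in the wild-type libraries and 757 CPM in the knockout, 2.68-fold lower. Of 32 members measured, 21 were called lower and none higher, and of all measured genes 5.33% were called lower and 7.7% higher. The median log2 difference was -1.39 over all 33 members, measured or not, and -0.02 over the measured genes of the whole set. The class, however, was made of different cells: clusters 9, 10 and 15 held 246, 417 and 308 cells in the first wild-type library, 218, 346 and 294 in the second, and 813, 504 and 0 in the knockout. With only the clusters that held at least 20 cells of each genotype, 2 members were called lower, Cfap43 and Cfap52. In those clusters together the members summed to 595 and 592 CPM in wild type and 757 CPM in the knockout. When genes were scaled over all libraries together before clustering, 13 were called lower. With only the wild-type plexus-like cells that held a tdTomato and no YFP UMI, the sums were 1575 and 1928 CPM against 757 CPM. Of 31 members measured under that setting 18 were called lower, with no share over all genes beside this count. The following values for the whole class therefore include the absence of cluster 15, and fewer cells with a high level and less RNA per cell are separated only by the values within clusters.

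**Figure D2:**
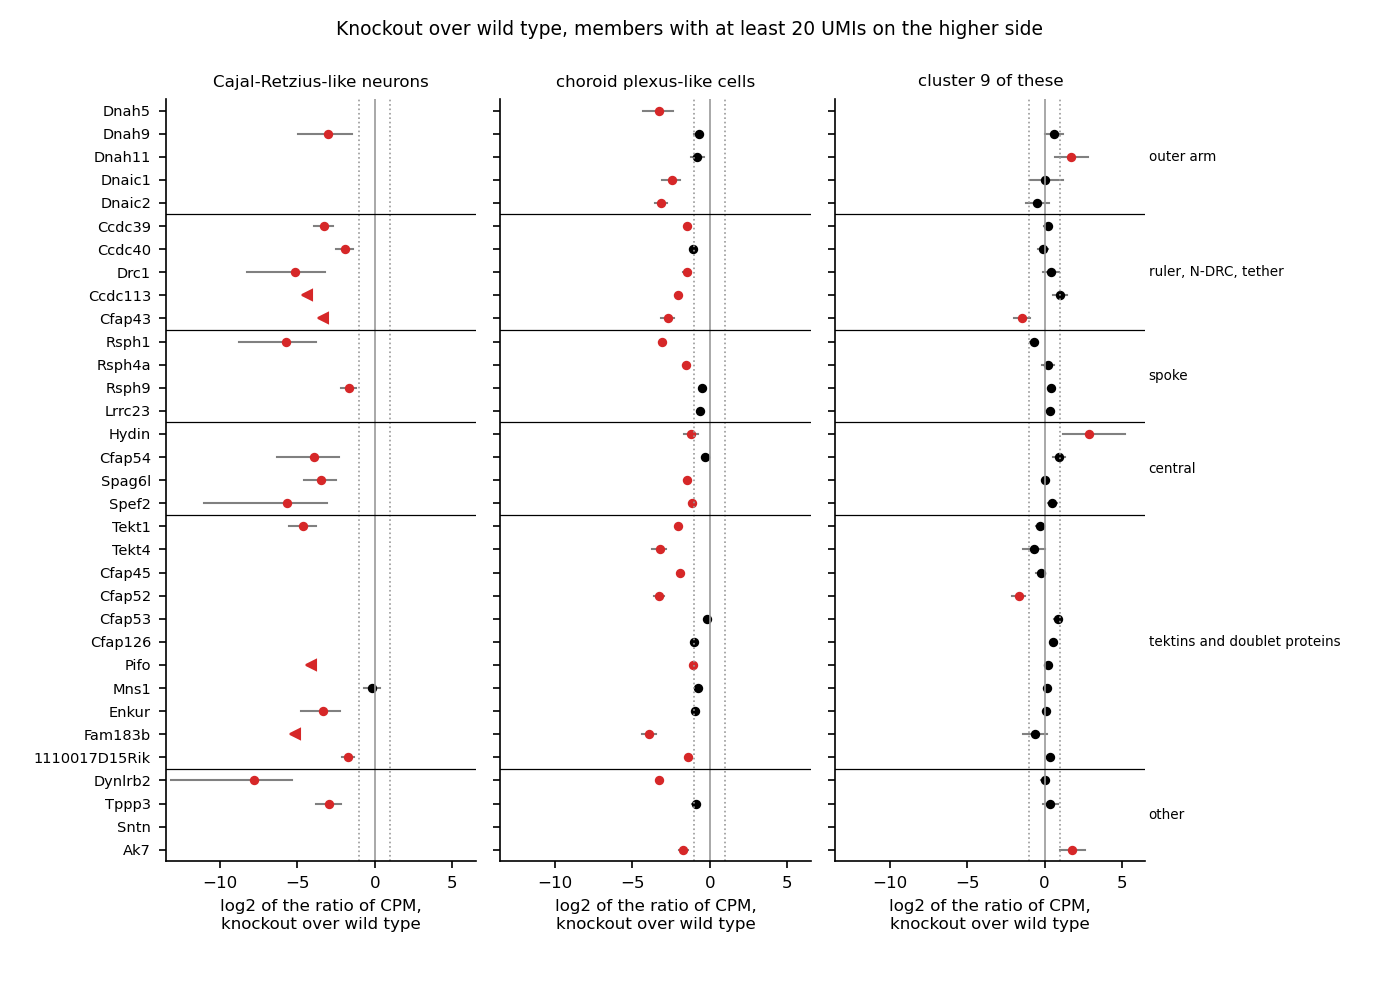
Log2 fold change of each axonemal gene, knockout over wild-type mean, in choroid plexus-like cells and Cajal-Retzius-like neurons. Bars are 95% conditional counting intervals, triangles mark limits for genes without a knockout UMI, red marks genes called in either direction, and dotted lines stand at 2-fold. Red genes are all lower in the plexus-like cells (21) and the neurons (18). In cluster 9, 2 red genes are lower and 3 are higher.

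Among the outer dynein arm genes, 3 of 5 were called lower in knockout plexus-like cells. Dnaic2, an intermediate chain of the arm, was at 26.6 and 29.9 CPM in wild type and 3.16 CPM in the knockout, 8.94-fold lower (counting interval 6.89 to 11.8). Dnaic1, the other intermediate chain, was at 7.33 and 8.98 CPM against 1.48 CPM, 5.52-fold lower (3.73 to 8.41). Dnah5, a heavy chain with the motor domain, was at 4.24 and 6.51 CPM against 0.561 CPM, 9.59-fold lower (5.18 to 19.5). The knockout was below both wild-type libraries for all 3. The heavy chains Dnah9 and Dnah11 differed less, at 11.49 and 14.1 against 7.80 CPM and at 6.10 and 6.14 against 3.52 CPM.

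The ruler proteins CCDC39 and CCDC40 set the repeat along the doublet at which arms and spokes dock. Ccdc39 was at 91.7 and 110 CPM in wild-type and 36.6 CPM in knockout plexus-like cells, 2.76-fold lower (2.54 to 3.00). Ccdc40 was at 33.3 and 38.4 CPM against 16.7 CPM, which is 2.15-fold below the mean but not called, since it was under 2-fold against the first library. Drc1, a subunit of the nexin-dynein regulatory complex, and Ccdc113 were 2.77-fold and 4.15-fold lower. Cfap43, part of the tether of an inner dynein, was at 20.04 and 20.3 CPM against 3.06 CPM. In all, 4 of these 5 genes were called lower.

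Cfap43 was lower in the knockout in hem progenitor-like cells, in cells of clusters that matched no marker class, and within cluster 9 too. In hem progenitor-like cells it was at 11.2 and 13.3 CPM in wild type and 0.247 CPM in the knockout, and in cluster 9 at 14.6 and 13.8 CPM against 5.19 CPM. The cells of no marker class made up 51.1%, 49.1% and 56.7% of the libraries. In them Cfap43 had 1140 UMIs in wild type and 14 in the knockout, 63.3-fold lower (37.6 to 116). Its lower level was thus not particular to the plexus-like cells and neurons in whose counts it stands. Of 24 members measured in hem progenitor-like cells, the 2 called lower were Cfap43 and Cfap52, while 1.56% of all measured genes were called lower there. The summed level of the members in that class was 197 and 200 CPM against 191 CPM. In the GENCODE annotation Cfap43 overlaps 3 genes on the same strand, Itprip, Gm22240 and Mir8090, and the gene sets used for counting differed between wild type and knockout; the part of this in the result was not tested.

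Of the radial spoke genes, 2 of 4 were called lower in knockout plexus-like cells. Rsph1, a subunit of the spoke head, was at 137 and 149 CPM in wild type and 16.6 CPM in the knockout, 8.61-fold lower (7.68 to 9.66). Rsph4a, also of the head, was 2.88-fold lower (2.50 to 3.32). Rsph9 at 66.8 and 63.3 against 46.4 CPM, and Lrrc23 at 51.3 and 53.8 against 33.8 CPM, were not called. In the central apparatus 3 of 4 were called: Spag6l (2.82-fold), Hydin (2.28-fold) and Spef2 (2.25-fold). Cfap54, a central pair projection protein, was at 20.7 and 23.6 CPM against 17.9 CPM.

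In the doublet group 7 of 11 were called lower, with folds from 2.11 to 14.8. Fam183b was at 29.6 and 32.4 CPM in wild-type and 2.09 CPM in knockout plexus-like cells, the top of that range (10.8 to 20.8). Cfap52, a protein of the doublet lumen, was at 45.9 and 51.1 CPM against 4.99 CPM, 9.71-fold lower (7.89 to 12). Tekt4 and Tekt1, the tektin filaments, were at 20.04 and 23.1 against 2.29 CPM and at 104 and 116 against 26.9 CPM. Cfap53 was at 45.1 and 49.7 CPM against 41.0 CPM, so that within a group of proteins that share the doublet lumen the difference between genotypes ranged from 1.16-fold to 14.8-fold. Cfap126, which was 2.04-fold below the wild-type mean, Mns1 and Enkur were not called.

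Of the other cilium proteins, Dynlrb2, a light chain shared with the dynein of intraflagellar transport, was at 201 and 219 CPM in wild-type and 22.2 CPM in knockout plexus-like cells, 9.47-fold lower (8.58 to 10.5). Its paralog Dynlrb1, which all cells use, was at 265 and 270 CPM against 209 CPM. Ak7, an adenylate kinase of the axoneme, was 3.26-fold lower, and Tppp3 at 15.8 and 17.6 against 9.12 CPM was not called.

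Within cluster 9, which both genotypes filled, most members were not called, while their sum was higher in the knockout. It was 941 (counting interval 905 to 977) and 916 (880 to 954) CPM in wild type and 1079 CPM (1058 to 1100) in the knockout. The wild type pooled E11.5 and E12.5 embryos, and the knockout was E12.5 alone. In wild-type cluster 9 cells with a tdTomato and no YFP UMI, 24 in each library, the sums were 903 (804 to 1010) and 1026 (923 to 1138) CPM. With a YFP and no tdTomato UMI they were 953 and 928 CPM. The part of stage in this difference was not tested. The median log2 difference was 0.21 over all 33 members, measured or not, and -0.02 over the measured genes of the whole set. Of 31 members measured, 26 were not called, while 2 were lower (Cfap43 and Cfap52) and 3 were higher, and over all genes 3.39% were lower and 6.91% higher. Dynlrb2 was at 43.3 and 34.2 CPM against 38.7 CPM, Tekt1 at 51.5 and 49.98 against 41.2 CPM, and Ccdc39 at 43.0 and 46.5 against 51.1 CPM. The knockout lay between the wild-type libraries for Dynlrb2, below both for Tekt1 and above both for Ccdc39, each by less than 2-fold. The 3 higher genes were Hydin, a large central pair protein, at 0.711 and 0.385 against 4.03 CPM (7.36-fold, 2.31 to 36.8), Ak7 at 3.55 and 2.69 against 10.7 CPM, and Dnah11 at 1.42 and 2.31 against 5.93 CPM. Their wild-type levels rest on 3, 17 and 10 UMIs, so that each reached 20 UMIs on the knockout side only. As a count, 3 of 31 is near the 6.91% of all genes called higher.

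Cluster 10 gave the same counts of lower genes, Cfap43 and Cfap52 again, with 24 of 26 measured members not called, against 2.09% lower and 6.85% higher over all genes. The members summed there to 462 and 464 CPM in wild type and 459 CPM in the knockout. Of the 12 regulators of multiciliation measured in cluster 9, 8 were called lower, among them Foxj1 at 265 and 294 against 92.4 CPM. Knockout cells of cluster 9 also held more Ttr, 58040 CPM against 17977 and 20019 CPM. The part of these differences in the members' levels was not tested.

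**Figure D3:**
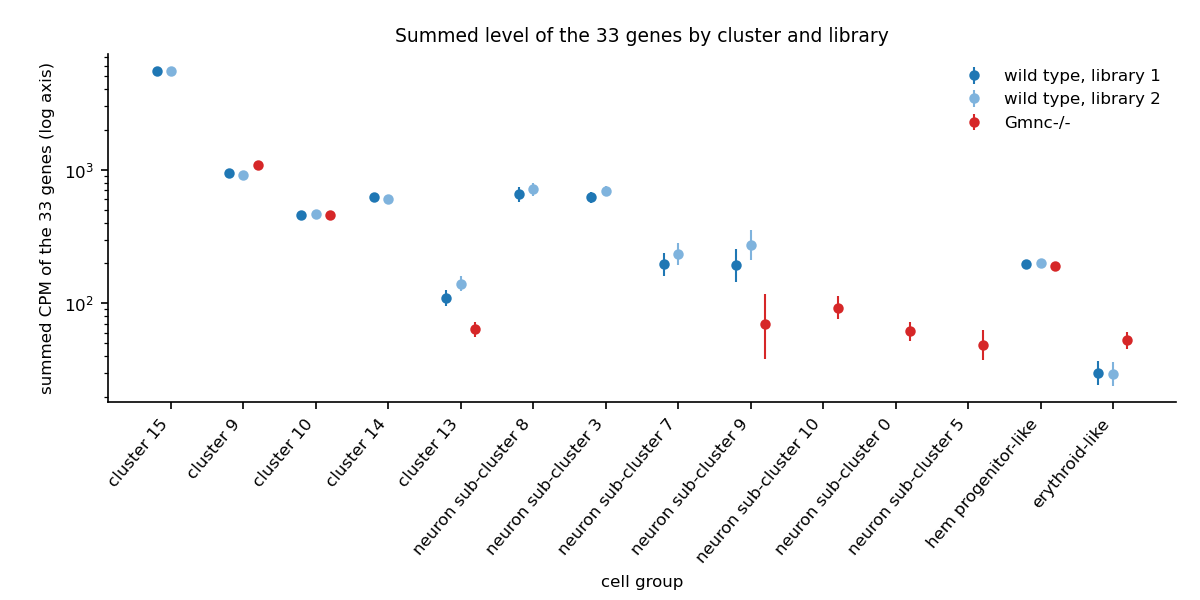
Summed level of the 33 axonemal genes in CPM (log axis) by library, for each class or cluster with at least 20 cells in the library. Cluster 15 stands at 5532 and 5465 CPM with no knockout point. Cluster 10 lies at like levels in the 3 libraries, and cluster 9 is higher in the knockout (1079 CPM against 941 and 916 CPM). The wild-type points pool E11.5 and E12.5 cells, and the knockout is E12.5 alone.

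The second place with axonemal transcripts was the class of Cajal-Retzius-like neurons, of which the wild-type libraries held 276 and 254 and the knockout 529. They were neuron sub-clusters whose Cajal-Retzius marker score exceeded the pallial neuron score, and Reln, the reelin gene, stood at 266, 250 and 171 CPM. In wild type the members summed to 428 and 498 CPM, above hem progenitor-like cells at 197 and 200 CPM. Mns1 gave 63 of the wild-type member UMIs in the neurons and 3574 of those in hem progenitor-like cells. Of 22 members measured, 16 were at least 2-fold higher in the neurons than in hem progenitor-like cells, 2 were lower (Lrrc23 and Mns1) and 4 were not called, with 13.8% of all measured genes called higher and 15.4% lower. The median log2 difference was 1.37 over all 33 members, measured or not, and -0.12 over the measured genes of the whole set.

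The level in the neurons was a fraction of that in cluster 15, and the fraction differed by gene. Its median was 6.49%, with Ak7 at 0 and Tppp3 at 59.5%. By group the median was 18.1% for the ruler and regulatory complex genes, 8.63% for the central apparatus, 6.46% for the outer arm, 3.58% for the spokes and 2.87% for the doublet proteins. The doublet proteins ranged from 0.339% for Tekt4 to 20.7% for Fam183b. Cluster 9, by the same measure, stood at a median of 16.7% and hem progenitor-like cells at 1.05%. Sets of few genes make up these medians, and no group was tested against another.

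**Figure D4:**
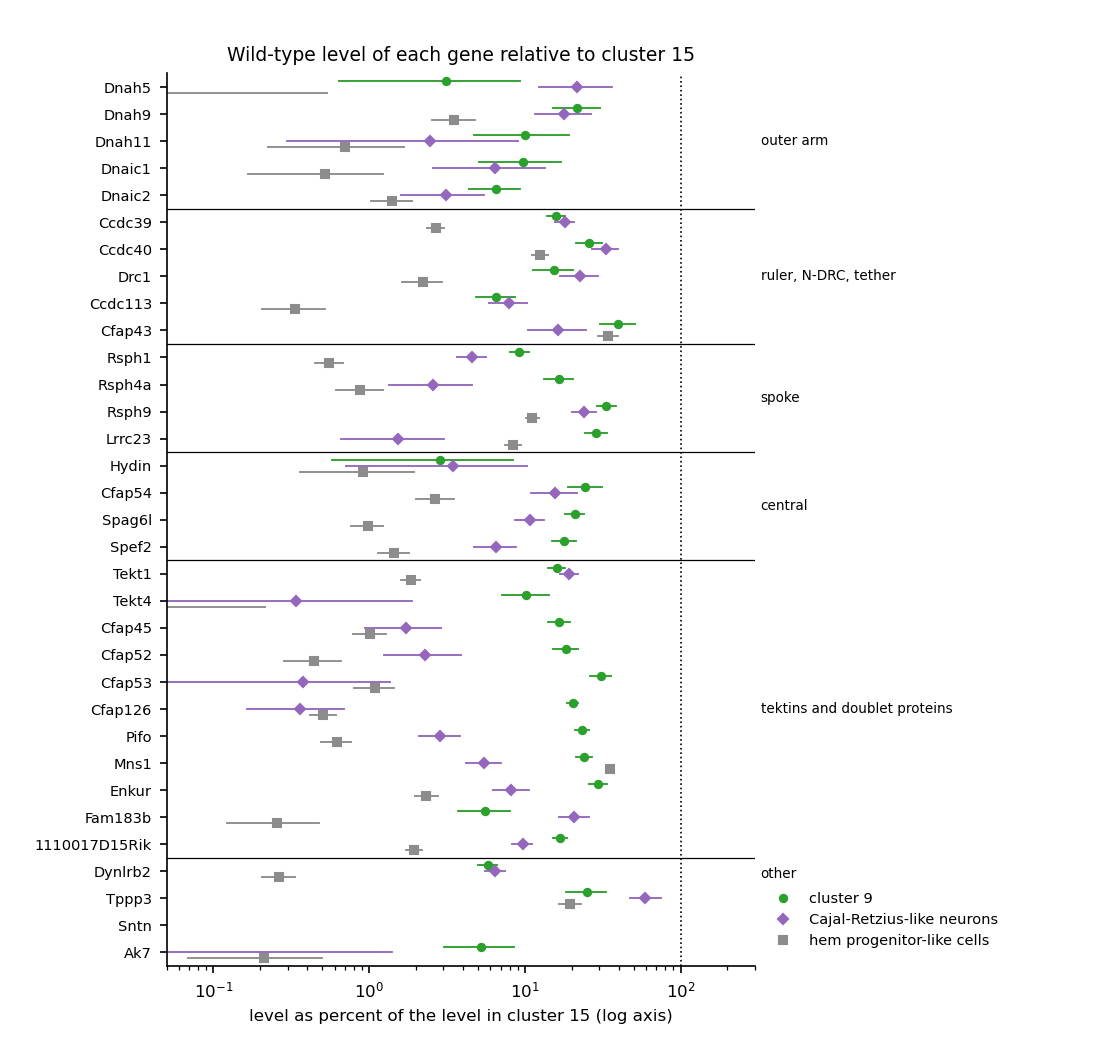
Wild-type level of each axonemal gene in Cajal-Retzius-like neurons as a percentage of its level in cluster 15 (log axis), by structural group, with counting intervals. Tppp3 is highest at 59.5%, and genes without a UMI in the neurons are drawn as an interval only.

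Several genes that were plain in cluster 15 were near 0 in the neurons. Cfap126 was at 555 and 569 CPM in cluster 15 and at 0.458 and 3.58 CPM in wild-type neurons. Ak7, at 62.8 and 57.4 CPM in cluster 15, had no UMI in the neurons of any library, Tekt4 had 1 UMI in wild type, and Cfap53 had 2. Tekt1, in contrast, stood at 313 and 317 CPM in cluster 15 and at 54.1 and 67.1 CPM in the neurons. The neurons thus showed part of the axonemal set, and a gene with few or no UMIs there may be expressed below what this depth detects.

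In knockout Cajal-Retzius-like neurons the members summed to 66.1 CPM, 7.01-fold below wild type. Of 19 members measured, 18 were called lower, none higher, and Mns1 was not called (14.2 and 14.3 against 12.4 CPM). Over all genes 9.67% were called lower and 5.79% higher. The median log2 difference was -1.89 over all 33 members, measured or not, and -0.15 over the measured genes of the whole set. In the knockout 22 members were under 1 CPM and 9 had no UMI, against 9 and 6 members under 1 CPM in the wild-type libraries. The genotypes filled different sub-clusters: wild-type neurons lay mainly in sub-clusters 3, 7, 8 and 9, and knockout neurons in 0, 5 and 10. With only the sub-clusters that held at least 20 cells of each genotype, 1 member still had the UMIs to be measured, Tppp3, and it was called lower; those were sub-clusters 0 (23 wild-type and 286 knockout cells) and 9 (62 and 33), where the members summed to 192 and 233 CPM against 62.2 CPM, 3.42-fold lower in the knockout. With only the 79 wild-type cells that held a tdTomato and no YFP UMI, the sums were 534 and 846 CPM against 66.1 CPM, 10.4-fold lower in the knockout. tdTomato is the reporter of the E12.5 embryos and of the Wnt3aCre lineage, and the knockout cells were not selected by lineage. The 8 members that could still be measured were all called lower. With so few wild-type cells, only members at a high level in them reached 20 UMIs on that side. No share over all genes stands beside this count. Other scalings moved the median of all genes in this comparison to 0.03 or 0.01 and the genes called lower and higher from 1032 and 618 to 790 and 821 or 815 and 799, and the same 18 members were called lower under each.

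Of the outer arm genes, Dnah9 alone was measured in this comparison, with 13, 14 and 4 UMIs, 5.96 and 6.26 CPM against 0.764 CPM. All 5 ruler, regulatory complex and tether genes were called lower. Ccdc39 was at 43.5 and 58.1 CPM in wild-type and 5.16 CPM in knockout neurons, 9.86-fold lower (6.61 to 15.3). Ccdc40 was at 25.2 and 34.0 against 7.64 CPM, 3.87-fold lower (2.70 to 5.68). Drc1 had 29, 31 and 2 UMIs, a ratio of 35.5 (9.42 to 300.2). Ccdc113, with 27 and 26 wild-type UMIs, had none in the knockout and was at least 20.9-fold lower, taking 3 counts over the group as the limit for a count of 0. Cfap43 had 13 and 13 UMIs and none, at least 10.3-fold lower.

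Of the spokes, Rsph1 had 39, 49 and 2 UMIs (a ratio of 52.1, 14 to 437), and Rsph9 was at 32.1 and 34.9 against 10.3 CPM, 3.25-fold lower (2.36 to 4.52). All 3 measured central apparatus genes were called: Spag6l at 19.2 and 23.3 against 1.91 CPM, Cfap54 at 12.4 and 5.37 against 0.573 CPM, and Spef2 at 6.41 and 13 CPM against a single UMI. The 2 wild-type libraries were themselves about 2-fold apart for the last 2 of these, so that their folds rest on few UMIs.

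In the doublet group 5 of 6 measured genes were called lower. Tekt1 was at 54.1 and 67.1 CPM in wild-type and 2.48 CPM in knockout neurons, 24.4-fold lower (14 to 46.5). Fam183b had 53 and 38 UMIs in wild type and none in the knockout, at least 36-fold lower, and Pifo 16 and 28 and none, at least 17.3-fold lower. Enkur was 10.3-fold lower (4.72 to 26.8). 1110017D15Rik was at 43.1 and 42.9 against 13 CPM, 3.31-fold lower (2.50 to 4.43), one of the smaller differences in the group.

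Dynlrb2, although among the members with most wild-type UMIs in the neurons, had 1 in the knockout. It was at 39.9 and 46.5 CPM in wild-type neurons, 87 and 104 UMIs, and at 0.191 CPM in the knockout, 1 UMI, a ratio of 226 whose interval runs from 40.1 to 8985. Its paralog Dynlrb1 was at 416, 403 and 400 CPM in the same cells. Tppp3 was at 21.5 and 25.9 against 3.06 CPM, 7.77-fold lower (4.57 to 14.1). The groups did not overlap for any of the 18 called genes, by the rule that made the call.

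Within the wild-type neurons the members differed by sub-cluster. They summed to 620 and 698 CPM in sub-cluster 3 and to 654 and 712 CPM in sub-cluster 8, against 196 and 235 CPM in sub-cluster 7 and 192 and 275 CPM in sub-cluster 9. Dynlrb2 was at 64.8 and 77.6 CPM in sub-cluster 3, at 70.7 and 68.4 CPM in sub-cluster 8, and at 10.3 and 14.6 CPM in sub-cluster 7. Tekt1 stood at 94.5 and 111 CPM, 65.9 and 82.5 CPM, and 24.8 and 35.4 CPM in these sub-clusters, so that for both genes sub-cluster 7 was lower than 3 and 8 in each library. All 3 sub-clusters passed the marker rule for Cajal-Retzius-like neurons, with scores of 3.27, 2.88 and 3.88 (mean log2 fold of the markers). In the knockout the members summed to 61.6 CPM in sub-cluster 0, 48.8 CPM in 5 and 92.7 CPM in 10. In sub-cluster 9, where both genotypes had cells, the knockout stood at 70.4 CPM (38.5 to 118), 3.32-fold below the wild-type mean.

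Cluster 14 held 361 and 325 wild-type cells and none of the knockout. All 6 intermediate progenitor markers and 5 of 9 general neuron markers were at least 2-fold above other cells in it, but none of those 6 was among its 10 leading genes by fold. Ccno, Cdkn1a, Mcidas and Trp73 led it, and Cdkn1a and Trp73 also led sub-clusters 3 and 8, so that it is given by number and its class was not settled. Its members summed to 628 and 605 CPM, close to sub-clusters 3 and 8. Tekt1 was at 85.1 and 94.3 CPM, Ccdc39 at 74.5 and 79.9 CPM and Dynlrb2 at 62.6 and 49.6 CPM. With its cells counted among the Cajal-Retzius-like neurons, an alternative chosen after seeing the data, 25 of 26 measured members were called lower in the knockout. Of 27 measured against hem progenitor-like cells, 20 were called higher. Since this adds cells with member transcripts to the wild type only, a higher count of lower members is built into the setting. No share over all genes stands beside these counts.

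Single cells were compared after thinning each to 4000 UMIs, which left out 171, 215 and 1212 shallower cells. In cluster 15, 74.8% and 73.2% of the cells held a UMI of at least 10 members. Of the plexus-like cells, 233 of 968 (24.1%, exact interval 21.4 to 26.9) and 215 of 841 (25.6%, 22.6 to 28.7) wild-type cells held at least 10 members, against 19 of 1232 (1.54%, 0.931 to 2.40) in the knockout. All 19 lay in cluster 9, where 1.63%, 0.962% and 2.58% of cells reached 10 members. Without thinning the shares were 41.0%, 44.6% and 20.7%.

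**Figure D5:**
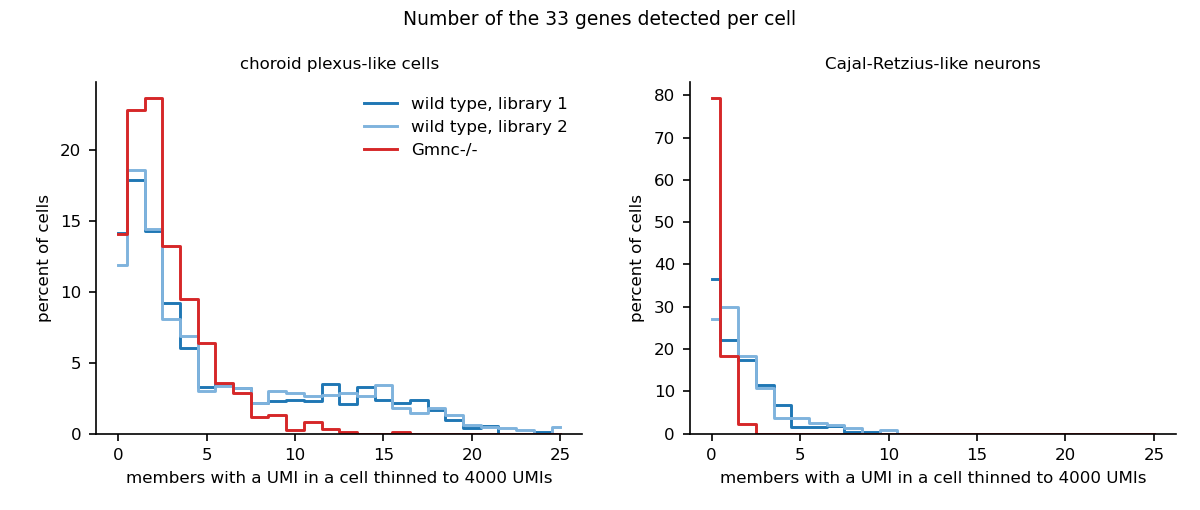
Number of axonemal genes with a UMI per cell, after thinning to 4000 UMIs, by library in choroid plexus-like cells and Cajal-Retzius-like neurons. At least 10 genes were detected in 24.1% and 25.6% of wild-type and 1.54% of knockout plexus-like cells.

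In the neurons at least 5 members were found in 15 of 270 (5.56%) and 25 of 250 (10.0%) wild-type cells and in 0 of 512 knockout cells, whose exact interval reaches 0.718%; unthinned, the shares were 19.9%, 25.6% and 0.378%. No thinned erythroid cell held 5 members, and unthinned the erythroid shares were 0.518%, 0 and 0.444%, so that the unthinned share of the knockout neurons is at this background. Ccdc39 was detected in 15.6% and 22.4% of thinned wild-type neurons and 1.95% of knockout neurons. For Tekt1 the shares were 18.1%, 19.2% and 0.195%, for Dynlrb2 14.4%, 13.2% and 0.195%, and for Fam183b 7.78%, 7.20% and 0. The same genes were detected in 0 to 0.518% of erythroid cells. Each of these transcripts was thus found in a minority of wild-type neurons at this depth.

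The lists around the axoneme were counted in the same way. In knockout Cajal-Retzius-like neurons 19 of 22 measured further axonemal genes were called lower, among them Cfap69, of the central apparatus (30.7 CPM as the wild-type mean against 1.34 CPM), and Iqcg, of the regulatory complex (29.0 against 2.10 CPM). Of the dynein arm assembly factors 4 of 7 were lower (Dnaaf2, Dnaaf5, Ttc12 and Zmynd10), and of the genes of intraflagellar transport and the primary cilium 9 of 33, among them Wdr35 (43.2 against 8.595 CPM). These stand beside 9.67% lower over all genes. In plexus-like cells, with 5.33% of all genes lower and 7.7% higher, 25 of 60 further axonemal genes were lower and 3 higher, and 5 of 13 assembly factors were lower. The 3 of 33 transport and primary cilium genes called lower there, and the 3 axonemal genes called higher, are near those shares of all genes.

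Of the regulators, 8 of 11 measured were called lower in the neurons, where 9.67% of all genes were, and 8 of 12 in plexus-like cells, where 5.33% were and where Gmnc was called higher. The others were not called. Foxj1, the forkhead factor of motile cilia, was at 57.3 and 79.1 CPM in wild-type and 4.97 CPM in knockout neurons, and at 311 and 354 against 70.2 CPM in plexus-like cells. Ccno was at 129 and 146 against 0.306 CPM in plexus-like cells. Rfx3, an X-box binding factor, was at 60.3 and 62.6 against 105 CPM there and was not called in either class. Of the 13 members higher in wild-type Cajal-Retzius-like neurons than in hem progenitor-like cells that were in the promoter table, 10 had an X-box side, as did 6 of the 15 other members. Dynlrb2, Tekt1, Fam183b and 1110017D15Rik, printed above, are among the 10, and the 4 promoters with a core belong to the 15. The 15 include members with too few UMIs to be called, and those 4 genes are among these. In wild-type neurons Dnah5 had 17 UMIs, Cfap45 and Cfap52 14 each and Sntn 0. Dnah5, Cfap45 and Cfap52 were called higher in the neurons when doublets were kept or cluster 14 was added. The split by motif thus follows the UMI minimum in part.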

How the data were processed

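Per the labels, the reads came from 10x 3′ libraries. The authors mapped them to mm10, and what they deposited are UMI counts for each gene and barcode. The submitters' processing notes name Cell Ranger 3.1.0; the headers of the deposited matrices name 3.1.0 (wild type) and 6.0.0 (knockout). Which annotation release was used is not stated. Of 28001, 28001 and 32285 features, the 27040 with an Ensembl identifier in all libraries were kept. Cells needed 1000 genes, 2000 UMIs and at most 10% mitochondrial UMIs, and 941, 679 and 2491 cells that scored highest as neighbours of simulated doublets were removed, at 0.8% per 1000 barcodes. Leiden clustering (resolution 1, leidenalg 0.10.2, Python 3.11.15) used 2000 variable genes without the cilium lists, scaled within genotype, 40 components (20 for neurons) and 20 neighbours. A cluster was called after a class by at least 3 markers at 2-fold or more and a mean log2 fold of at least 1; a neuron sub-cluster was Cajal-Retzius-like when that score exceeded the pallial score by 1. UMIs were summed per class and library. Intervals are exact at 95% (Poisson for levels, binomial for shares, conditional for ratios), and folds against 0 use 3 counts over the group. Medians of log2 differences use a pseudocount of 1 CPM. Calls were tried on simulated Poisson counts with known folds, without variation between samples and for genes with many UMIs only. Folds near 2-fold and genes near the minimum of 20 UMIs were not covered. All 33 members are named; of other genes those are named on which a result turns, and of like pattern the 10 best correlated. The members, lists and marker sets were chosen with earlier results of these data known. Promoter sequences are RefSeq's. Cell filter, doublets, resolution, scaling, minimum counts, reporter class and wild-type library were varied.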

Additional observations from a re-analysis of the deposited data

Results flagged for a closer look

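For 7 members the knockout pointed one way in Cajal-Retzius-like neurons and the other way in cluster 9 of the choroid plexus-like cells: each was called at least 2-fold lower in the neurons but stood above both wild-type libraries in cluster 9, with a counting interval of the fold above 1. The fold of knockout over wild type in cluster 9 was 1.98 for Ccdc113, 1.92 for Cfap54, 1.52 for Dnah9, 1.397 for Spef2, 1.32 for Rsph9, 1.25 for 1110017D15Rik and 1.17 for Pifo. All 7 lay below the 2-fold used for a call, and the difference between the cell groups was not tested. Across all genes measured in cluster 9 more were called higher than lower in the knockout. The wild type pools E11.5 and E12.5 cells there, and stage was not separated for these 7 members.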

How the results depend on the processing

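No paired analysis was possible because the knockout is 1 library and the wild-type libraries are repeats of 1 suspension. The counts of called members were 18 (lower in knockout Cajal-Retzius-like neurons), 21 (lower in knockout choroid plexus-like cells), 29 and 16 (higher in wild-type plexus-like cells and neurons than in hem progenitor-like cells). Leaving out either wild-type library gave 14 to 15, 21 to 23, 29 to 30 and 13 to 15. Requiring 50 UMIs and 20 CPM lowered the first to 9 and the last to 8, since fewer genes are then measured. Scaling genes over all libraries together lowered the second to 13; the cause was not tested. Wild-type cells with tdTomato and no YFP UMI lowered the first to 8, of 8 members that still had 20 UMIs, with the summed difference 10.4-fold against 7.01-fold. No share over all genes stands beside the counts of the reporter, shared-cluster and cluster 14 alternatives. With only the clusters that held at least 20 cells of each genotype the first was 1, of 1 member still measured, and the second 2, of 31. Under that setting the log2 fold of knockout over wild type in plexus-like cells turned from negative to 0.31 for Dnah5, 0.066 for Dnaic1, 0.47 for Ccdc39, 0.39 for Drc1, 0.90 for Ccdc113, 0.46 for Rsph4a, 1.08 for Hydin, 0.28 for Spag6l, 0.72 for Spef2, 0.11 for Tekt1, 0.30 for Cfap45, 0.54 for Pifo, 0.65 for 1110017D15Rik, 0.22 for Dynlrb2 and 1.33 for Ak7. That setting leaves out cluster 15, and clusters 9, where most members were higher, and 10 then held 464 and 763 wild-type and 813 and 504 knockout cells. Of the other values for single members under the alternatives, 882 moved by less than their counting interval and 291 by more. Cluster 14 added to the neurons, and shared barcodes left out, were alternatives chosen after seeing the data. The former gave 25 of 26 measured and 20 of 27 measured for the first and last count. The other alternatives left all 4 counts within 1.5 times. In the neurons, members with under 20 UMIs could not be called.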

Other observations

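Over the 24 clusters and sub-clusters with at least 50 wild-type cells, the genes outside all lists whose log2(CPM + 1) was most like the mean of the members, among 9563 genes ranked, were Saxo2 (Pearson's r = 0.976), Ubxn11 (0.967), Efcab10, Morn5, Iqca, Ttc21a, Ak9, 2410004P03Rik, Wdr63 and Lrriq1 (0.949). The correlations are descriptions over clusters that share libraries. Lrriq1 stood at 249.7 CPM in cluster 15 and 32.8 CPM in Cajal-Retzius-like neurons of the wild type, and at 0.955 CPM in knockout neurons.

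The reporter transcripts split the wild-type cells by embryo stage and by lineage together, since tdTomato follows Wnt3aCre and YFP a general Cre. Stage and lineage cannot be told apart in this split. In cluster 15 the members summed to 4892 and 5055 CPM in cells with a tdTomato and no YFP UMI, and to 5801 and 5527 CPM in cells with a YFP and no tdTomato UMI. In Cajal-Retzius-like neurons the sums were 534 and 846 CPM against 396 and 444 CPM. The cells with tdTomato numbered 214 of 1829 plexus-like cells and 79 of 530 neurons, and cells with no reporter UMI were in neither group.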
